A study of Mus musculus with 6 samples.

Results

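The DNA replication machinery was examined in mouse M2c macrophages, as 45 genes that include the MCM (minichromosome maintenance) complex. The genes were taken by symbol, by keeping the rows of the count table whose gene symbol was on a list of replication genes. Each of the 45 symbols had 1 row among 19309 genes, and all 45 passed the filter on low counts (a mean above 5 counts per library), as did 13785 genes in all. Pclaf passed through its counts in sEH-/- cells alone, since its wild-type libraries had 2, 0 and 1 counts. RNA had been sequenced from macrophages of 3 sEH-/- and 3 wild-type mice, with 1 library per mouse. sEH is the soluble epoxide hydrolase, encoded by Ephx2, which converts epoxides of polyunsaturated fatty acids to diols. The wild-type mice were C57BL/6N, and the sEH-/- mice carried the deleted allele Ephx2tm1.1Arte, made with a Cre expressed from the Gt(ROSA)26Sor locus, so that the deletion was present in all cells and throughout life. Mice of both genotypes were age-matched littermates of 8 to 10 weeks, and most experiments of the study used females. Bone marrow monocytes of both genotypes were differentiated over 7 days with 15 ng/mL each of M-CSF and GM-CSF. They were brought to the M1 state with 10 ng/mL LPS plus 1 ng/mL IFN-γ and repolarized to the M2c state with 10 ng/mL TGF-β1. Per the labels, these steps took 24 h and 48 h. The comparison asked which replication transcripts differed between M2c macrophages with and without the sEH.

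DNA replication starts when the origin recognition complex, Cdc6 and Cdt1 load rings of MCM2, MCM3, MCM4, MCM5, MCM6 and MCM7 onto DNA in G1 phase. Cdc45 and the GINS proteins then turn each ring into the active helicase, primase and polymerases copy the strands, and the sliding clamp PCNA, loaded by the RFC complex, keeps the polymerases on DNA. Many of these genes are transcribed at the G1/S boundary under E2F transcription factors, and they are low in cells that have left the cell cycle. Bone marrow precursors divide in response to M-CSF, and macrophages slow or stop dividing on activation by LPS and interferon.

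In sEH-/- macrophages, 3 of the 45 genes were higher and 1 was lower. The transcripts that rose were Mcm5 (3.08-fold) and Mcm7 (2.21-fold), both subunits of the MCM2-7 ring, and Pclaf, the PCNA clamp-associated factor. Mcm8, a helicase subunit of homologous recombination that is not part of the MCM2-7 ring, fell by 0.78 on the log2 scale. The other ring subunits were Mcm2, Mcm3, Mcm4 and Mcm6, with log2 fold changes between -0.081 and 0.25, and none passed the test. A gene was called when its adjusted p was below 0.05 and its change exceeded 1.5-fold in either direction, and log2 fold changes are given throughout as sEH-/- over wild-type. Over all tested genes, 1.51% were called higher and 1.1% lower, against 6.67% and 2.22% of the 45 replication genes (4.55% called higher among the 44 without Pclaf). Of the 45 log2 fold changes, 28 were above 0, the median was 0.068 and 38 lay within the fold threshold on either side. Without Pclaf, 27 of 44 were above 0 and the median was 0.053. DESeq2 called the same 4 genes, and limma-voom called Mcm5, Mcm8 and Pclaf. Over all tested genes the median was -0.00085 and 49.8% were above 0.

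**Figure D1:**
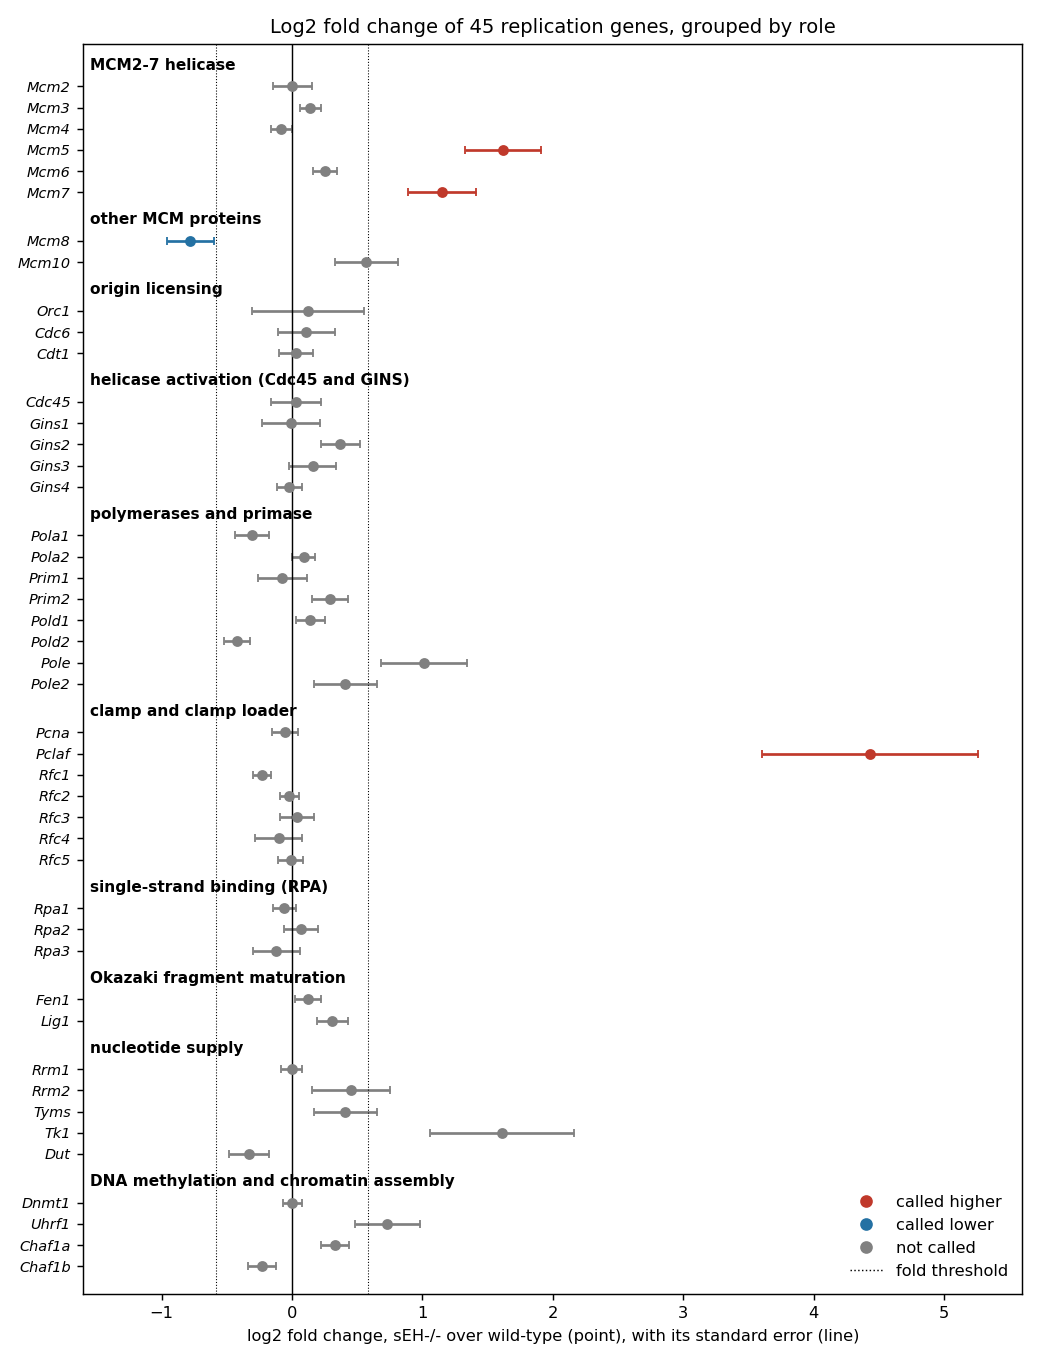
Log2 fold change (sEH-/- over wild-type, x axis) of each of the 45 replication genes, grouped by role on the y axis, with its standard error as a line and the fold threshold of 1.5 dotted. Mcm5, Mcm7 and Pclaf are coloured as called higher and Mcm8 as called lower, and 38 genes lie within the dotted lines.

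Promoter sequences are shown for the 4 called genes and for Mcm2 and Mcm6, which encode ring partners of MCM5 and MCM7 and were not called. They come from the RefSeq table for GRCm38.p6, the build of the counts (mm10), which held windows for 38 of the 45 genes. Mcm4, Pole, Prim2, Gins1, Gins2, Gins4 and Rfc2 were not matched. Each line gives the 150 bases before the annotated start, 5′ to 3′ on the strand of the gene. Capitals mark E2F-type motifs (TTTCCCGC, TTTGGCGC, TTTGCCGC or TTTCGCGC) and CCAAT boxes on either strand. The stretches lie at chr8:75109359-75109508 (plus strand) for Mcm5, chr5:138171884-138172033 (minus) for Mcm7, chr9:65890173-65890322 (plus) for Pclaf, chr2:132815991-132816140 (plus) for Mcm8, chr6:88898781-88898930 (minus) for Mcm2 and chr1:128359706-128359855 (minus) for Mcm6.
Mcm5: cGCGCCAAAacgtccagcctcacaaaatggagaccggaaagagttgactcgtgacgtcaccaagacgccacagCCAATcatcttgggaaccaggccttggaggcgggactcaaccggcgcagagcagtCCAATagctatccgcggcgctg
Mcm7: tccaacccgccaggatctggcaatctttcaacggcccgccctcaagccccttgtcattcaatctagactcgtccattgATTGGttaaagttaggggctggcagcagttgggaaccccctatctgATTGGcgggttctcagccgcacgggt
Pclaf: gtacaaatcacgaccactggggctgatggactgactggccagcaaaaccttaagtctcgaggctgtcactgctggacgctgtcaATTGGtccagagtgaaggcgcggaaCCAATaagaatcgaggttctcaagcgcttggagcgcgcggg
Mcm8: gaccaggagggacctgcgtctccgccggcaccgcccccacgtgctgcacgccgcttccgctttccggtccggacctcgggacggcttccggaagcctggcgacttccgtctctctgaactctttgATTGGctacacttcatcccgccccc
Mcm2: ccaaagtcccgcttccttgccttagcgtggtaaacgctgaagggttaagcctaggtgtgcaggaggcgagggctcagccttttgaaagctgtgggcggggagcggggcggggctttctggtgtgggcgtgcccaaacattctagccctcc
Mcm6: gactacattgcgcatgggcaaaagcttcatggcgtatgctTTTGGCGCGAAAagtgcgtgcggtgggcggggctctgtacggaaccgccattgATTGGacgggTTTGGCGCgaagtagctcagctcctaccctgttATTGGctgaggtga

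The 4 E2F-type motifs were searched on both strands in the 250 bases before the start. At least 1 of them was present in 21.7% of the 46 windows of replication genes, against 1.86% of all 32851 windows of the table. The 10 genes with a match were Mcm5, Mcm6, Mcm7, Orc1, Cdc6, Gins3, Pola1, Rfc3, Dnmt1 and Uhrf1. In Mcm6, a TTTGGCGC and the reverse complement of TTTCGCGC overlap in the first block of capitals. In Mcm7, the match to TTTCCCGC lies upstream of the bases shown. Mcm5 also matched TTTCGCGC, but this match does not lie wholly within the bases shown, which hold only its match to TTTGGCGC. Pclaf and Mcm8 had no match in their windows, nor had Mcm2, so that called and uncalled genes were found both with and without a match. CCAAT was present in 60.9% of the windows of replication genes and in 33.8% of all windows. The motif TTTGAA, part of the cell cycle element that DREAM complexes bind, was present in 13.0% and 16.0%, respectively. A match is a match of letters and does not show that a factor binds there.

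Library totals lay between 4400197 and 6096440 counts. Ephx2, the deleted gene, had 1 to 4 counts in each library labelled sEH-/- against 26 to 57 in each labelled wild-type (log2 fold change -4.05, edgeR adjusted p = 0.0042). Macrophage markers (all 10 with a row, among them Csf1r, Adgre1 and Cd68) summed to 2310 to 2860 CPM (normalized counts, with library totals adjusted by TMM factors) in sEH-/- and to 2060 to 2570 CPM in wild-type libraries. The 3 lymphocyte markers with a row (of 9 listed) summed to at most 0.806 CPM in any library, and Thy1 had no count. The myeloid progenitor markers, which mark the dividing precursors, had 5 of 9 genes with a row and summed to 3.93 to 4.63 CPM in sEH-/- and to 4.39 to 8.1 CPM in wild-type libraries, with Kit at 0 to 4 counts. Elane and Cd34 had at most 4 counts in any library and were higher by CPM in every sEH-/- library. The tested progenitor markers were Prtn3, with 15, 12 and 9 against 11, 36 and 31 counts (log2 fold change -0.98, adjusted p = 0.14), and Gfi1, with 3, 3 and 3 against 6, 9 and 11 counts and no overlap (-1.38, adjusted p = 0.089). Gfi1 passed the filter on low counts through its wild-type libraries alone, so that it had to be lower in sEH-/- cells to be tested. The neutrophil list (7 of 9 with a row) summed to 283 to 359 and 265 to 317 CPM, mostly from Mmp8 (0.15, adjusted p = 0.44). Its other members were lower in level, and S100a8 (23.9, 29.6 and 27.1 against 17.1, 18.1 and 20 CPM, 0.54, adjusted p = 0.057), Camp (10, 3 and 4 against 1, 1 and 1 counts) and Ngp (4, 4 and 3 against 0, 3 and 1 counts) were higher by CPM in every sEH-/- library, whereas S100a9 and Ltf (0 to 6 counts) overlapped. Dendritic cell markers (5 of 7) summed to 27.5 to 58.3 and 42.1 to 59.3 CPM, and erythroid markers (2 of 7) to 0.806 to 3.93 and 1.32 to 3.76 CPM. The tested dendritic genes overlapped, with Zbtb46 at -0.98 (adjusted p = 0.11), Clec9a at -0.31 and Ccr7 at -0.095. Stromal and endothelial markers (all 8) summed to 16.9 to 35.2 and 12.7 to 67.5 CPM. Wild-type replicate 2 was highest, with 121 counts of Col1a1 and 171 of Col1a2. Col1a1, Col1a2 and Col3a1 lay between -2.09 and -0.54, whereas Pdgfrb, Dcn, Pecam1 and Cdh5 lay between 0.51 and 0.97. Markers without a row were not analysed here, and no gene of these lists was called, although the macrophage marker Cd14 passed the adjusted p alone (0.50, adjusted p = 0.029). In bulk RNA, fewer cells of a type and less RNA per cell cannot be told apart. The part of the myeloid progenitor and other marker levels in the results was not tested.

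Among the MCM2-7 genes, Mcm5 moved most. Mcm5 (ENSMUSG00000005410, mm10 chromosome 8, 75109569 to 75128439, plus strand) had 24.8, 30.6 and 15 CPM in sEH-/- replicates 1, 2 and 3 and 10.8, 6.32 and 6.26 CPM in wild-type replicates 1, 2 and 3. All 3 sEH-/- libraries lay above all 3 wild-type libraries, although wild-type replicate 1 came closer to the sEH-/- range than the others. The log2 fold change was 1.62 (SE 0.29, edgeR adjusted p = 0.022). Mcm7 (ENSMUSG00000029730, chromosome 5, 138164583 to 138172422, minus strand) had 18.4, 32.6 and 16.4 CPM in sEH-/- and 11.2, 9.23 and 10.2 CPM in wild-type libraries. The groups again did not overlap, with sEH-/- replicate 2 far above the rest. Its log2 fold change was 1.15 (SE 0.26, edgeR adjusted p = 0.041). In the annotation, 3.89% of the exonic bases of Mcm7 are shared with the microRNAs Mir25 and Mir93 on the same strand, where reads over several genes were not counted, and Mcm5 shares none.

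The calls of Mcm5 and Mcm7 were lost when any of 3 libraries was left out. Without sEH-/- replicate 2, the log2 fold change of Mcm5 was 1.41 (adjusted p = 0.061) and that of Mcm7 was 0.80 (adjusted p = 0.093). Leaving out wild-type replicate 2 gave an adjusted p of 0.12 for Mcm5 and 0.19 for Mcm7, and leaving out wild-type replicate 3 gave 0.13 and 0.16. Over all tested genes, the number of calls fell from 360 to 96 when sEH-/- replicate 2 was left out, to 25 without the wild-type replicate 2 and to 6 without the wild-type replicate 3. With limma-voom, Mcm7 had an adjusted p of 0.054.

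The other 4 ring subunits were more abundant, and their log2 fold changes were close to 0. Mcm3 had 75, 74.9 and 68.0 CPM in sEH-/- and 69.8, 62.2 and 66.2 CPM in wild-type libraries (log2 fold change 0.14, SE 0.081, edgeR adjusted p = 0.33). Mcm6 had 85.7, 86.2 and 70.1 CPM against 70.4, 65.9 and 68.5 CPM (0.25, SE 0.092, adjusted p = 0.14). In both genes sEH-/- replicate 3 fell within the wild-type range. Mcm4 had 57.4, 60.8 and 54.6 CPM against 59.5, 60.7 and 62.6 CPM (-0.081, SE 0.080, adjusted p = 0.59). Mcm2 had 45.9, 46.3 and 32.6 CPM against 35.5, 47.6 and 41.5 CPM (0.0035, SE 0.15, adjusted p = 0.99). The groups overlapped for each of these 4 genes. The approximate 95% intervals of the log2 fold change reached from -0.017 to 0.30 for Mcm3, 0.065 to 0.43 for Mcm6, -0.24 to 0.076 for Mcm4 and -0.29 to 0.30 for Mcm2, against 1.06 to 2.19 for Mcm5 and 0.64 to 1.65 for Mcm7.

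**Figure D2:**
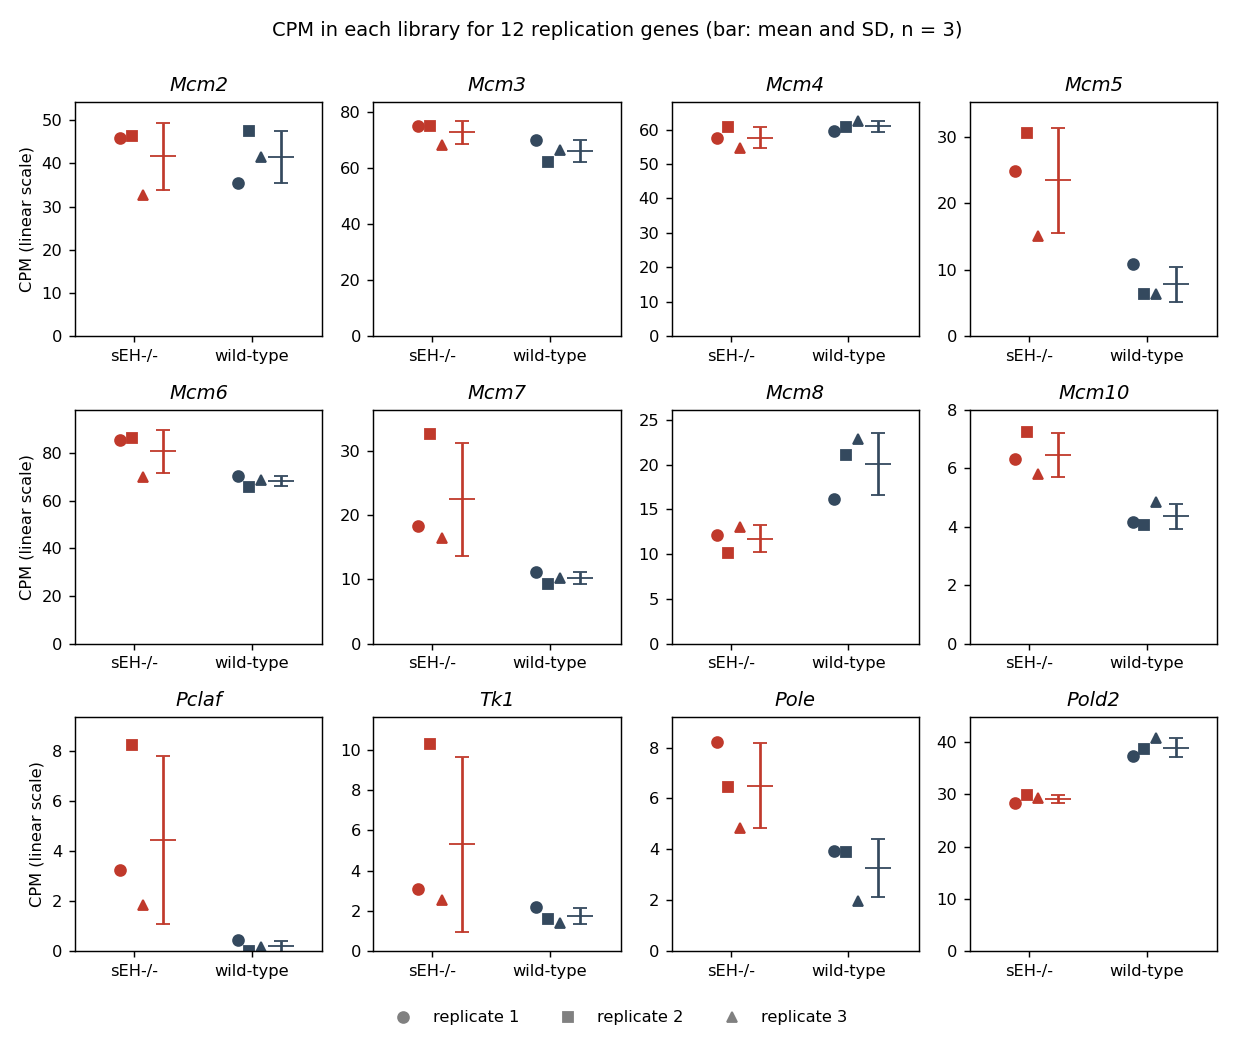
CPM on a linear scale (y axis) in each of the 3 sEH-/- and 3 wild-type libraries for the 8 MCM genes and for Pclaf, Tk1, Pole and Pold2, with symbols for replicates and a bar for the mean and SD (n = 3). The sEH-/- points lie above all wild-type points for Mcm5, Mcm7, Mcm10, Pclaf, Tk1 and Pole and below them for Mcm8 and Pold2, and sEH-/- replicate 2 stands highest for Mcm5, Mcm7, Pclaf and Tk1.

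The 6 ring subunits act in equal numbers in the protein complex, whereas their transcripts did not have equal levels. Levels were taken as CPM per exonic kilobase, over all annotated exons of a gene together. They compare genes only roughly, since a transcript can be shorter than these exons together. In this measure Mcm3 (17.6 ± 1.01, SD, n = 3) and Mcm4 (17.0 ± 0.443) were highest in wild-type cells and overlapped. Mcm6 (14.6 ± 0.486) and Mcm2 (5.97 ± 0.868) followed. Mcm7 (2.31 ± 0.221) and Mcm5 (1.95 ± 0.645) were lowest and overlapped each other. Thus the 2 subunits that rose in sEH-/- cells were the 2 least abundant in wild-type cells. They were also lowest by mean wild-type CPM, which uses no length (10.2 for Mcm7 and 7.78 for Mcm5, against 41.6 for Mcm2). Of the summed level of the 6 subunits, Mcm5 made up 8.70, 9.95 and 6.22% in sEH-/- replicates 1, 2 and 3, against 4.44, 2.72 and 2.63% in the 3 wild-type replicates. Mcm7 made up 5.84, 9.56 and 6.13% against 4.17, 3.59 and 3.86%. The share of Mcm4 was 22.4, 22.0 and 25.1% against 27.3, 29.1 and 29.3%. For these 3 subunits the groups did not overlap, with a two-sided exact permutation p of 0.1 each, the smallest that 3 against 3 libraries can give (0.2 after Benjamini-Hochberg adjustment over the 6 subunits). The exact permutation p was 0.3 for the shares of Mcm2 and Mcm3 and 0.8 for that of Mcm6. The shares of a library are tied, since a rise in any of them lowers the rest, and the groups of Mcm4 overlapped in CPM. The lower share of Mcm4 is therefore not a result separate from those of Mcm5 and Mcm7. The summed level was 69.7 ± 8.39 in sEH-/- and 59.5 ± 1.23 in wild-type cells (SD, n = 3, exact permutation p = 0.2).

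**Figure D3:**
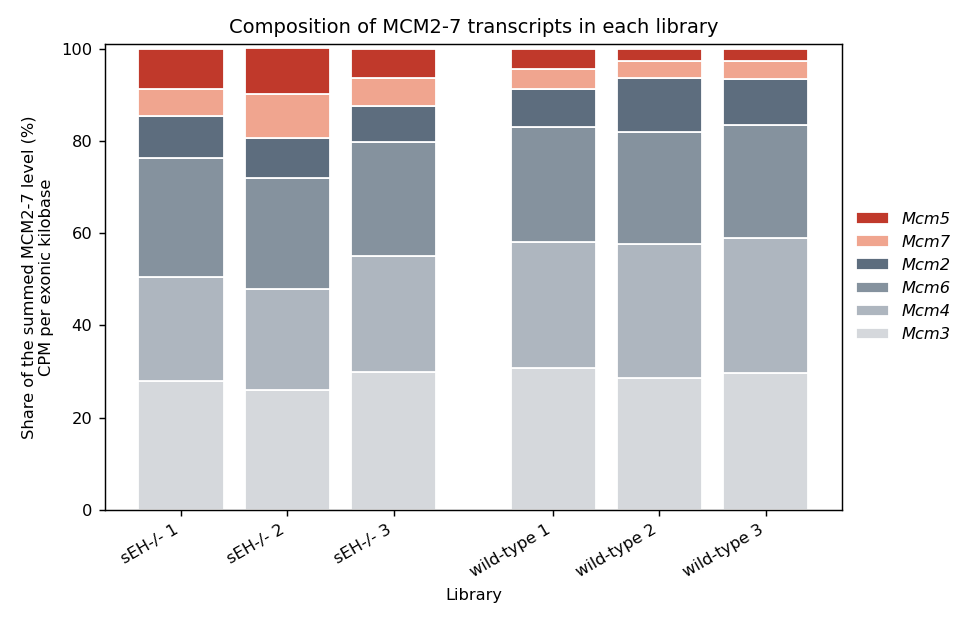
Share of each MCM2-7 transcript (stacked, %, y axis) in their summed level in CPM per exonic kilobase, for each library (x axis). The top segments, Mcm5 and Mcm7, are wider in the 3 sEH-/- libraries (Mcm5 6.22 to 9.95%) than in the 3 wild-type libraries (Mcm5 2.63 to 4.44%).

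Of the 2 MCM genes outside the ring, Mcm8 was called and Mcm10 was not. MCM8 works with MCM9 as a helicase in recombination repair. Mcm8 (ENSMUSG00000027353, chromosome 2, 132816141 to 132844197, plus strand) had 12.1, 10.1 and 13.0 CPM in sEH-/- and 16.2, 21.1 and 22.9 CPM in wild-type libraries, so that all sEH-/- libraries were lower. The log2 fold change was -0.78 (SE 0.18, edgeR adjusted p = 0.046). The call of Mcm8 was lost with sEH-/- replicate 2 left out (adjusted p = 0.15), and likewise with wild-type replicate 2 (0.21) or wild-type replicate 3 (0.19) left out. Its partner Mcm9 had a log2 fold change of 0.10 (adjusted p = 0.65). MCM10 helps to activate the helicase and recruits polymerase alpha. Mcm10 had 6.32, 7.25 and 5.79 CPM in sEH-/- and 4.17, 4.05 and 4.83 CPM in wild-type libraries. The groups did not overlap, but the gene missed the threshold (log2 fold change 0.57, SE 0.24, adjusted p = 0.19). Non-overlapping groups were common in these data, with 11.8% of all tested genes higher and 14.5% lower in all 3 sEH-/- libraries. Of the 45 replication genes, 10 were higher (22.2%) and 4 lower (8.89%) in this way. The 10 include Pclaf, which had to be higher in sEH-/- cells to be tested.

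No gene of origin licensing was called. Orc1, Cdc6 and Cdt1, which load the MCM ring, had log2 fold changes between 0.028 and 0.12 and adjusted p-values between 0.81 and 0.92. Orc1 was thinly covered, with 6 to 26 counts per library, and its approximate 95% interval ran from -0.73 to 0.97. The further licensing genes Orc2, Orc3, Orc4, Orc5 and Orc6, taken from a list of other replication factors, all lay between -0.33 (Orc2, adjusted p = 0.074) and -0.033 (Orc3, adjusted p = 0.83) without a call. Gmnn, encoding the Cdt1 inhibitor geminin, had a log2 fold change of 0.020 (adjusted p = 0.94).

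No gene of helicase activation was called. Cdc45, Gins1, Gins3 and Gins4 lay between -0.021 and 0.16. Gins2 had 26.5, 28.0 and 23.6 CPM in sEH-/- and 19.3, 17.8 and 23.4 CPM in wild-type libraries (log2 fold change 0.37, SE 0.15, edgeR adjusted p = 0.16). Its groups were separated only by the small gap between sEH-/- replicate 3 and wild-type replicate 3. Of the exonic bases of Gins2, 67.3% lie under exons of Gse1 on the other strand. The counts were made strand-aware, so that such bases were assigned by strand.

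Among the polymerases and primase, no gene passed both thresholds, and Pold1 and Pold2, subunits of the same enzyme, had log2 fold changes of opposite sign. Pole, the catalytic subunit of the leading-strand polymerase epsilon, had 8.20, 6.45 and 4.86 CPM in sEH-/- and 3.95, 3.89 and 1.97 CPM in wild-type libraries. The groups did not overlap, and the log2 fold change was 1.01 (SE 0.33, edgeR adjusted p = 0.10). Its accessory subunit Pole2 was at 0.41 (SE 0.24, adjusted p = 0.34). Pold2, an accessory subunit of polymerase delta, had 28.3, 29.8 and 29.2 CPM in sEH-/- and 37.3, 38.7 and 40.8 CPM in wild-type libraries. The spread was narrow in both groups, and Pold2 passed the adjusted p but not the fold threshold (-0.42, SE 0.10, adjusted p = 0.047). By adjusted p alone, 2.39% of all tested genes were higher and 1.62% lower. Of the 45 genes, 3 were higher (6.67%, Pclaf among them) and 2 lower (4.44%). With any 1 library left out, the adjusted p of Pold2 lay between 0.052 and 0.21, and with DESeq2 it was 0.12. Its catalytic partner Pold1 had a log2 fold change of 0.14 (adjusted p = 0.46).

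The polymerase alpha and primase subunits, which make the primers, were not called either. Pola1, the catalytic subunit, had 33.8, 30.2 and 25.2 CPM in sEH-/- and 36.2, 40.8 and 34.2 CPM in wild-type libraries. The groups nearly touched but did not overlap (log2 fold change -0.31, SE 0.13, edgeR adjusted p = 0.18). Prim2, the large primase subunit, had 27.8, 33.4 and 28.7 CPM against 27.2, 21.1 and 25.8 CPM, a separation as narrow as that of Pola1 (0.29, SE 0.14, adjusted p = 0.25). Pola2 and Prim1 were at 0.091 and -0.073, with adjusted p-values of 0.58 and 0.85.

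Of the sliding clamp and its loader, one factor stood apart. Pclaf binds PCNA and is made mainly in dividing cells. Pclaf (ENSMUSG00000040204, chromosome 9, 65890237 to 65903266, plus strand) had 19, 41 and 8 counts in sEH-/- replicates 1, 2 and 3 against 2, 0 and 1 counts in wild-type replicates 1, 2 and 3, or 3.24, 8.26 and 1.85 CPM against 0.439, 0 and 0.179 CPM. Every sEH-/- library was above every wild-type library, with replicate 2 highest by far. The fitted log2 fold change was 4.43 (SE 0.83, edgeR adjusted p = 0.026). It rests on 3 counts in wild-type cells, and the ratio of the summed counts, 68 against 3 and scaled for library size, was 24.4 (95% interval 8.01 to 121, for counting error alone). Without sEH-/- replicate 2, 27 counts stood against 3 and the ratio was 14.4 (4.44 to 74.3, adjusted p = 0.047). With wild-type replicate 2 left out its adjusted p was 0.13, and with wild-type replicate 3 left out it was 0.14.

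The gene of the clamp itself was not called. Pcna had 55.8, 62.2 and 67.1 CPM in sEH-/- and 71.1, 59.4 and 61.6 CPM in wild-type libraries, with groups that overlapped widely (log2 fold change -0.053, SE 0.10, edgeR adjusted p = 0.80). Rfc1, the large subunit of the clamp loader, had 129, 121 and 133 CPM in sEH-/- and 143, 153 and 152 CPM in wild-type libraries. All 3 sEH-/- libraries were lower, by a small amount that missed the threshold (-0.23, SE 0.068, adjusted p = 0.080). The small loader subunits Rfc2, Rfc3, Rfc4 and Rfc5 lay between -0.10 and 0.038. Rpa1, Rpa2 and Rpa3, the subunits of the single-strand binding protein, lay between -0.12 and 0.068, and no adjusted p in either set was below 0.74. Of the Okazaki fragment enzymes, the flap nuclease gene Fen1 was at 0.12 (adjusted p = 0.53) and the ligase gene Lig1 at 0.31 (adjusted p = 0.16). Exons of Tmem258 or Gm10143 lie over 84.2% of the exonic bases of Fen1 on the other strand.

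The enzymes of nucleotide supply were mixed. Tk1, the thymidine kinase of S phase, had 3.07, 10.3 and 2.55 CPM in sEH-/- and 2.19, 1.62 and 1.43 CPM in wild-type libraries. The groups did not overlap, but 1 library, sEH-/- replicate 2, gave most of the difference (log2 fold change 1.61, SE 0.55, edgeR adjusted p = 0.11). Without it the log2 fold change of Tk1 was 0.73 (adjusted p = 0.42). Rrm2, the S-phase subunit of ribonucleotide reductase, had 13.5, 18.9 and 7.87 CPM against 7.68, 12.1 and 9.66 CPM, with sEH-/- replicate 3 inside the wild-type range (0.45, SE 0.30, adjusted p = 0.41). Dut, which removes dUTP, had 18.8, 18.9 and 23.1 CPM against 21.7, 26.9 and 27.4 CPM, and sEH-/- replicate 3 exceeded wild-type replicate 1 (-0.33, SE 0.15, adjusted p = 0.21). Tyms, the thymidylate synthase gene, was at 0.41 (SE 0.24, adjusted p = 0.33), and Rrm1, the large reductase subunit, at -0.0018 (SE 0.079, adjusted p = 0.99).

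The last group maintains DNA methylation and places histones behind the fork. Uhrf1, which recruits DNMT1 to newly copied DNA, had 12.1, 14.9 and 8.56 CPM in sEH-/- and 8.56, 6.80 and 6.26 CPM in wild-type libraries. Its sEH-/- replicate 3 and wild-type replicate 1 were the same to 3 digits, and the log2 fold change was 0.73 (SE 0.25, edgeR adjusted p = 0.11). Without sEH-/- replicate 3 its adjusted p was 0.049. Dnmt1, the maintenance methyltransferase, was the most abundant of the 45 transcripts by CPM and had 263, 247 and 256 CPM against 273, 253 and 239 CPM (0.0034, SE 0.076, adjusted p = 0.99). The chromatin assembly factor subunits had log2 fold changes of opposite sign, and neither passed the test. Chaf1a had 35.4, 34.2 and 35.6 CPM against 26.6, 26.9 and 30.4 CPM without overlap (0.33, SE 0.11, adjusted p = 0.11). Chaf1b had 50.5, 39.5 and 44.9 CPM against 49.6, 52.6 and 56.2 CPM, with sEH-/- replicate 1 inside the wild-type range (-0.23, SE 0.11, adjusted p = 0.23). Exons of Ubxn6 lie over 52.5% of the exonic bases of Chaf1a on the other strand.

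**Figure D4:**
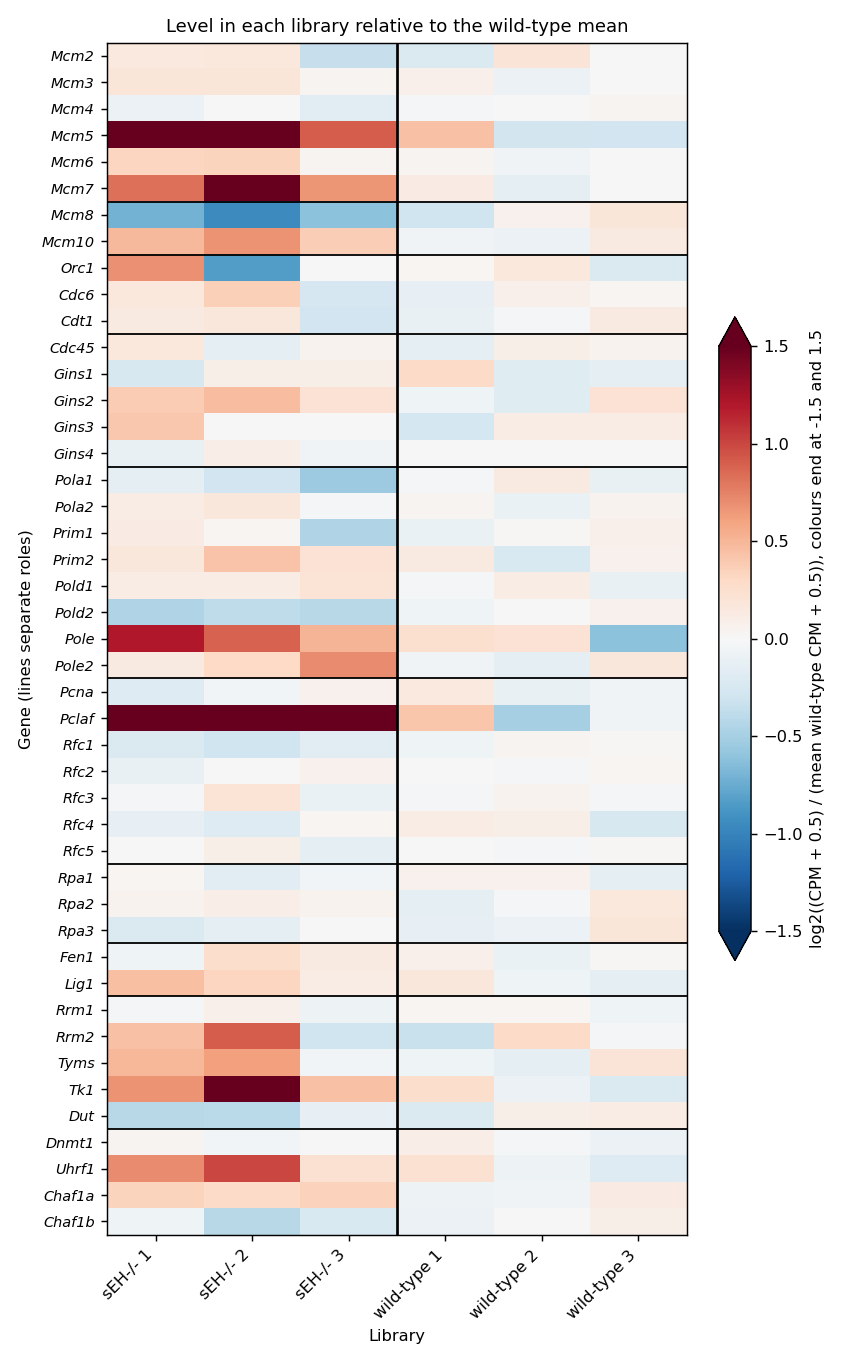
Level of the 45 genes (rows, lines separate roles) in each library (columns) as log2 of CPM over the wild-type mean, with 0.5 CPM added to both. Rows for Mcm5, Mcm7 and Pclaf are red in all 3 sEH-/- columns and the row for Mcm8 is blue, while most other rows stay pale. Rows of genes that were not called, such as Pole, Tk1, Mcm10 and Uhrf1, are also above 0 in all 3 sEH-/- columns.

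The libraries did not contribute alike. Relative to the wild-type mean, the median of the 45 genes on the log2 scale was 0.12, 0.11 and 0.0079 for sEH-/- replicates 1, 2 and 3, whereas the wild-type libraries were at -0.013, -0.023 and 0.016. For 19 of the 45 genes (42.2%) the highest value was in sEH-/- replicate 2, which was the highest library for 22.1% of all tested genes. Among the 41 genes other than Mcm5, Mcm7, Pclaf and Tk1, it was highest for 15 (36.6%). The summed CPM of the 45 genes was 1760, 1800 and 1660 for sEH-/- replicates 1, 2 and 3, whereas the wild-type libraries had 1710, 1690 and 1690.

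The level of the transcripts covered a wide range. In wild-type cells the levels per exonic kilobase ran from 0.0428 ± 0.0459 for Pclaf, 0.293 ± 0.101 for Pole and 0.336 ± 0.0765 for Tk1 (SD, n = 3) to 26.7 ± 2.59 for Pcna, 31.7 ± 0.199 for Gins4 and 34.5 ± 2.31 for Dnmt1. Pole and Tk1 did not differ beyond their spread. When the genes were divided into 3 sets of 15 by their mean level over the 6 libraries, the set with the lowest levels (0.438 to 3.91) had a median log2 fold change of 0.41, with 13 of 15 above 0 and 3 called. Pclaf is 1 of these 3 and had to be higher in sEH-/- cells to be tested, and without it 12 of 14 were above 0, 2 were called and the median was 0.41. The middle set (4.20 to 9.46) had a median of 0.068, with 10 above 0 and 1 called. The set with the highest levels (9.54 to 34.5) had a median of -0.021, with 5 above 0 and 0 called by edgeR, DESeq2 or limma-voom, and 3 of the 15 had an unadjusted p below 0.05, a share no higher than the 23.4% of all tested genes. All tested genes in the same level ranges had medians of -0.029, -0.045 and -0.004. In the lowest set, 47.1% of all such genes were above 0. No replication gene exceeded 0.18 counts per exonic base.

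**Figure D5:**
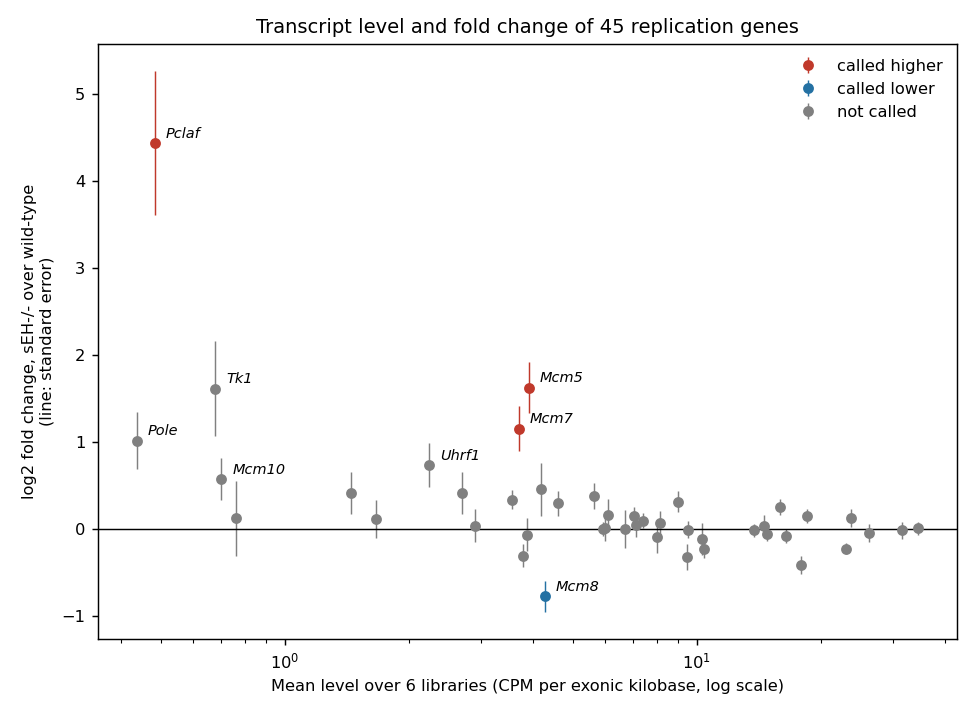
Log2 fold change (sEH-/- over wild-type, y axis, with its standard error) of each of the 45 genes against its mean level over the 6 libraries (CPM per exonic kilobase, log scale, x axis). Pclaf, Tk1, Pole, Mcm5 and Mcm7 lie at levels under 4 on the left, and the 15 genes with the highest levels lie between -0.42 and 0.25.

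Other genes of the pathway were taken from lists that hold none of the 45. Of 36 further replication factors, 35 were tested, with a median log2 fold change of -0.0042. Of these, 1 was called higher (2.86%) and 0 lower, against 1.51% and 1.1% of all tested genes. The called gene was Timeless, a fork protection factor, with 10.4, 18.5 and 6.48 CPM in sEH-/- and 4.61, 3.89 and 3.94 CPM in wild-type libraries (1.52, SE 0.36, edgeR adjusted p = 0.047). As for Mcm7 and Pclaf, sEH-/- replicate 2 was its highest library, and without that library the adjusted p of Timeless was 0.13. Of 19 further nucleotide enzymes, 0 were called in either direction with edgeR, DESeq2 or limma-voom, and 7 (36.8%) had an unadjusted p below 0.05, against 23.4% of all tested genes. Rrm2b, the reductase subunit used outside S phase, was at -0.36 (adjusted p = 0.12), and Samhd1, which degrades dNTPs, was at 0.10 (adjusted p = 0.59).

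Of 32 regulators of the G1/S transition, 30 were tested, and the median was -0.052. Of these, 1 was called higher (3.33%) and 2 lower (6.67%), against 1.51% and 1.1% of all tested genes. Myc, a transcription factor that drives entry into the cycle, had 20, 15.9 and 12.3 CPM in sEH-/- and 6.80, 3.89 and 7.34 CPM in wild-type libraries (log2 fold change 1.44, SE 0.27, edgeR adjusted p = 0.027). The genes Cdkn1c and Cdkn2c, both inhibitors of cyclin-dependent kinases, fell. Cdkn1c, encoding p57, had 18.4, 9.47 and 15 CPM against 26.1, 49.1 and 44.0 CPM (-1.47, SE 0.26, adjusted p = 0.022). Cdkn2c, encoding p18, had 6.15, 7.65 and 9.95 CPM against 16.2, 19.8 and 16.3 CPM (-1.16, SE 0.21, adjusted p = 0.024). For Myc, Cdkn1c and Cdkn2c the groups did not overlap. The calls of Myc, Cdkn1c and Cdkn2c were lost without sEH-/- replicate 2 (adjusted p = 0.061, 0.057 and 0.070), and the highest adjusted p on leaving out a library was 0.12, 0.13 and 0.14. Of the 30 genes, 5 were higher (16.7%) and 9 lower (30%) in all sEH-/- libraries without overlap, against 11.8% and 14.5% of all tested genes. E2f1, an activator of replication genes, was at 0.061 (adjusted p = 0.68). Its relatives E2f2 and E2f8 and the cyclin gene Ccna2, named after their values were seen, had non-overlapping groups and missed the threshold. E2f2, also an activator, had 22.5, 26.8 and 21.5 CPM against 17.1, 13.9 and 16.5 CPM (0.58, SE 0.15, adjusted p = 0.059). E2f8, a repressor, was at 1.02 (adjusted p = 0.073) and Ccna2, encoding cyclin A2, at 0.81 (adjusted p = 0.094). Cdkn1a, encoding p21, was at -0.28 (adjusted p = 0.12). Ccne1, encoding cyclin E1 and named after its values were seen, passed the adjusted p alone (-0.48, adjusted p = 0.046). Ccne1 and Cdkn1a were also lower without overlap. The other lower genes, named after their values were seen, were Rb1, Skp2, E2f5, Rbl2 and Cdkn2d, and none was called. Rb1 was at -0.45 (adjusted p = 0.055), Skp2 at -0.43 (adjusted p = 0.060) and E2f5 at -0.40 (adjusted p = 0.061). Rbl2 was at -0.22 (adjusted p = 0.13) and Cdkn2d at -0.14 (adjusted p = 0.44). Tfdp1, the other higher gene, was at 0.15 (adjusted p = 0.34).

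Among genes of mitosis, few were called. Of 30 such genes, 27 were tested, and the median was -0.11. Of these, 0 were called higher and 1 lower (3.7%), against 1.51% and 1.1% of all tested genes. The called gene was Cenpa, the histone of centromeres, with 23.2, 19.9 and 37.5 CPM in sEH-/- and 46.7, 68.7 and 55.3 CPM in wild-type libraries (-1.11, SE 0.21, edgeR adjusted p = 0.027). Its groups did not overlap, and its adjusted p was 0.081 without sEH-/- replicate 2 and 0.14 without wild-type replicate 2. Mki67, a marker of cycling cells, had 36.7, 32.2 and 38.9 CPM against 27.9, 44.1 and 31.0 CPM (0.055, SE 0.17, adjusted p = 0.88). Top2a was at -0.062 (adjusted p = 0.83), the mitotic kinase gene Cdk1 at -0.25 (adjusted p = 0.31) and its cyclin gene Ccnb1 at -0.38 (adjusted p = 0.39). Of the 27 tested genes, 3 were higher (11.1%) and 4 lower (14.8%) in all sEH-/- libraries, close to the 11.8% and 14.5% of all tested genes. The 3 higher ones, named after their values were seen, were Ube2c, Kif11 and Nuf2, and none was called. Cenpa and Ccnb1 were among the 4 lower ones, Ccnb1 with 4.95, 6.04 and 6.71 against 6.8, 6.8 and 9.3 CPM. The other lower genes are not named here. Ube2c, a ubiquitin-conjugating enzyme of mitosis, had 4, 21 and 4 counts against 1, 1 and 1 counts (3.23, SE 0.91, adjusted p = 0.068). Like Pclaf, Ube2c passed the filter on low counts through sEH-/- cells alone, so that it had to be higher there to be tested. Kif11, a spindle motor, had 3.42, 6.24 and 2.78 CPM against 0.878, 2.59 and 2.15 CPM (1.10, SE 0.43, adjusted p = 0.16), and Nuf2 was at 0.35 (adjusted p = 0.38). In Ube2c and Kif11, as in Pclaf and Tk1, sEH-/- replicate 2 was the highest library.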

How the data were processed

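The 6 RNA-seq libraries of M2c macrophages (3 per genotype) were grouped by their labels. The authors deposited raw counts per gene, without normalization. Per the study's methods and the submitters' processing notes, the authors used Trimmomatic 0.39 for trimming, STAR for alignment (mm10), Picard to drop duplicates and featureCounts for strand-aware counting over exons. Reads that were ribosomal, mitochondrial, mapped to several places or overlapped more than 1 gene were left out. Duplicates removed by position can flatten the counts of abundant genes. Labels and methods differ on the M1 step (24 h in the labels), the duration of TGF-β1, the library kit (mRNA in the labels, total RNA in the methods) and some tool versions.

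Counts were normalized with TMM and tested with edgeR 4.0.16 in R 4.3.3 (glmQLFit and glmQLFTest, all 6 libraries, no covariates) on the 13785 of 19309 genes whose mean count exceeded 5, which held 99.8% of counts. The study used DESeq2. Adjusted p-values are Benjamini-Hochberg values over all tested genes. The SE was taken from the log2 fold change and its quasi-likelihood F statistic (the ratio of the change to the root of F), and 95% intervals are the log2 fold change with 1.96 SE on either side. With 3 libraries a group these intervals are approximate and too narrow. That of Prim2, 0.014 to 0.56, leaves out 0 although its unadjusted edgeR p was 0.065. Library totals were 4400197 to 6096440 counts, TMM factors 0.982 to 1.03 and the common biological coefficient of variation 0.0866. Exonic lengths (all annotated exons of a gene together) and overlaps came from GENCODE M21 (mm10). Alternatives were DESeq2 1.42.0, limma-voom (limma 3.58.1), other scalings and filters, thinning, a replicate block, the log library total as a covariate, no fold threshold and leaving out each library. The fits were tested on simulated data. Figures were drawn with matplotlib 3.10.9.

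The 45 genes and the other lists were chosen with earlier results of these data known. Values are given in full for genes past the adjusted p, genes whose groups did not overlap, the 5 highest and 5 lowest log2 fold changes, Mcm2 to Mcm7, Pcna, Pclaf, Rrm2, Dnmt1 and Uhrf1. Outside the 45, called genes of the lists (at most 4 a list) and Ephx2, Mki67, Top2a, Cdk1, Ccnb1, Cdkn1a, Rrm2b, Samhd1 and E2f1 are named, with Orc2 to Orc6, Gmnn and Mcm9 as partners of the 45 and others where the text says that they were named after their values were seen.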

Additional observations from a re-analysis of the deposited data

How the results depend on the processing

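Over the 16 refits, the 45 genes gave 716 log2 fold changes. Of these, 698 stayed on the same side of the call threshold, 17 (of Mcm5, Mcm7, Mcm8 and Pclaf) lost the call, 1 (Uhrf1) gained it and 0 calls turned round. Most of the 716 belong to genes that were not called. Mcm5 kept its call in 13 of 16 refits, Mcm7 in 10 of 16, Mcm8 in 11 of 16 and Pclaf in 11 of 14. For 29 of the 45 genes the sign was the same in every refit. The others lay between -0.073 (Prim1) and 0.16 (Gins3) as reported. Of these, Orc1 was imprecise, and ran from -0.47 to 0.49 when 1 library was left out. Called genes of the 45 numbered 4 as reported, 2 with a replicate block (Mcm5 and Pclaf), 1 with the log library total as a covariate (Mcm5) and between 0 and 5 when 1 library was left out. All genes called numbered 360, but 234 with the replicate block, 171 with the covariate, 553 without the fold threshold, and between 6 and 625 when 1 library was left out. The median log2 fold change of the 45 genes, 0.068 as reported, was 0.032 with limma-voom, 0.046 without TMM factors, 0.046 with at least 10 counts in every library (42 genes), 0.036 with the replicate block and between 0.053 and 0.12 when 1 library was left out. The labels state no pairing, and the replicate numbers were not taken as one. Same-numbered libraries of the 2 genotypes did not deviate together (correlations -0.0818, -0.26 and -0.0367). Deviations from the mean of 3 libraries are tied, so these correlations cannot exclude a pairing. Where the refits lost a call, the cause was not tested. Of the refits with 5 libraries, 3 called more genes than the 360 (518 and 570 on leaving out replicates 1 and 3 of sEH-/-, and 625 on leaving out replicate 1 of the wild-type). The other 3 called fewer (96 on leaving out replicate 2 of sEH-/-, and 25 and 6 on leaving out replicates 2 and 3 of the wild-type). Pclaf was not tested with filterByExpr or with at least 10 counts in every library. Genes with few counts (Pclaf, Orc1, Pole, Tk1) were measured least precisely.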
